A study of Mus with 6 samples.

Results

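The genes described here encode the proteasome, the chaperonin TRiC, prefoldin, the heat shock proteins with their cochaperones and transcription factors, and the p97 complex. They were chosen by symbol, from the families Psma to Psmg, Pomp, Cct, Tcp1, Pfdn, Hspa, Hsp90, Hspb, Hsph1, Dnaja, Dnajb, Bag, Stip1, Cdc37, Hsf1, Hsf2, Stub1, Ahsa1, Vcp, Nploc4 and Ufd1. Only the symbols Hspa5, Hspa9, Dnajb9 and Dnajb11 were left out of these families. Rows of the count table were used only in 2 ranges of Ensembl identifiers, where longer exons went with higher counts on the same row and so the gene labels and the counts line up. This gave 57 genes of the 11659 in the table. Another 35 rows with a matching name lay outside these ranges, among them Hsp90ab1, Hspa1a, Hspa1b, Hsf1 and Psmb9, and 30 symbols were not analysed here, among them Hsp90aa1, Psmb5 and Psmb8.

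RNA was sequenced from chondrocytes of knee cartilage of 12-week-old C57BL/6J mice, with 3 wild-type (WT) samples and 3 samples of conditional Sirt6 knockout (Sirt6 cKO) mice. The study bred the knockout as Col2a1-CreERT2;Sirt6 flox/flox, so that a tamoxifen-activated Cre removes Sirt6 where the collagen II promoter is active. The sample labels call the controls wild type, and the tamoxifen schedule of the sequenced mice is not given in the sources used here. Its methods describe primary cells freed from articular cartilage by collagenase and used at first passage, and do not say whether cells of several mice were pooled. The comparison asks how the transcriptome of chondrocytes differs without Sirt6, a nuclear NAD-dependent deacylase. Total counts lay between 25726958 and 30156935 per sample. Sirt6 itself had 427, 338 and 362 CPM (counts scaled to the library size with TMM normalization) in WT and 36.2, 28.7 and 22.3 in Sirt6 cKO.

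Cells remove unwanted proteins mainly through the 26S proteasome, a barrel of alpha and beta rings (the 20S core) capped by a 19S particle whose ATPases unfold the ubiquitin-tagged substrate. New proteins are folded by TRiC, a double-ring chamber that receives actin and tubulin from prefoldin, and by HSP70 and HSP90, which work in cycles with J-domain proteins, nucleotide exchange factors and other cochaperones. Heat shock factors switch on many of these genes under protein stress, and chondrocytes, which secrete large amounts of collagen and proteoglycan, depend on both folding and disposal.

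Most measured subunits of the 20S core and the 19S particle were lower in Sirt6 cKO chondrocytes (15 of 20, and 0 higher), as were 2 of 4 HSP70 and HSP110 genes (4 of 4 without WT replicate 1). Of 4 TRiC genes 2 were lower and 1 higher, and of 6 J-domain genes 2 were lower and 2 higher. Of the 57 genes, all of which passed the filter on low counts, 31 were lower and 6 were higher at an adjusted p under 0.05 in edgeR's quasi-likelihood test. The lower genes made up 54.4% of the 57, whereas 24.3% of all 11246 genes tested were lower. The higher genes made up 10.5%, whereas 22.5% of all genes tested were higher. The median log2 fold change of the 57 genes was -0.49, which corresponds to 71.0% of the WT level, and that of all genes tested was 0.00. Most changes were smaller than 2-fold, with 10 genes below a fold change of 0.5 (7.15% of all genes tested) and 2 above 2 (8.72% of all genes tested). In 46 of the 57 genes (80.7%) no Sirt6 cKO sample lay within the range of WT, which held for 60.9% of all genes tested. With 3 samples against 3, an exact permutation test of a single gene cannot give a two-sided p below 0.1, so the statements below rest on the edgeR fit. The study describes the sequenced cells as from 3 control and 3 knockout mice, whereas the labels do not tie samples to animals or cultures, and the p-values measure the spread between these samples.

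**Figure D1:**
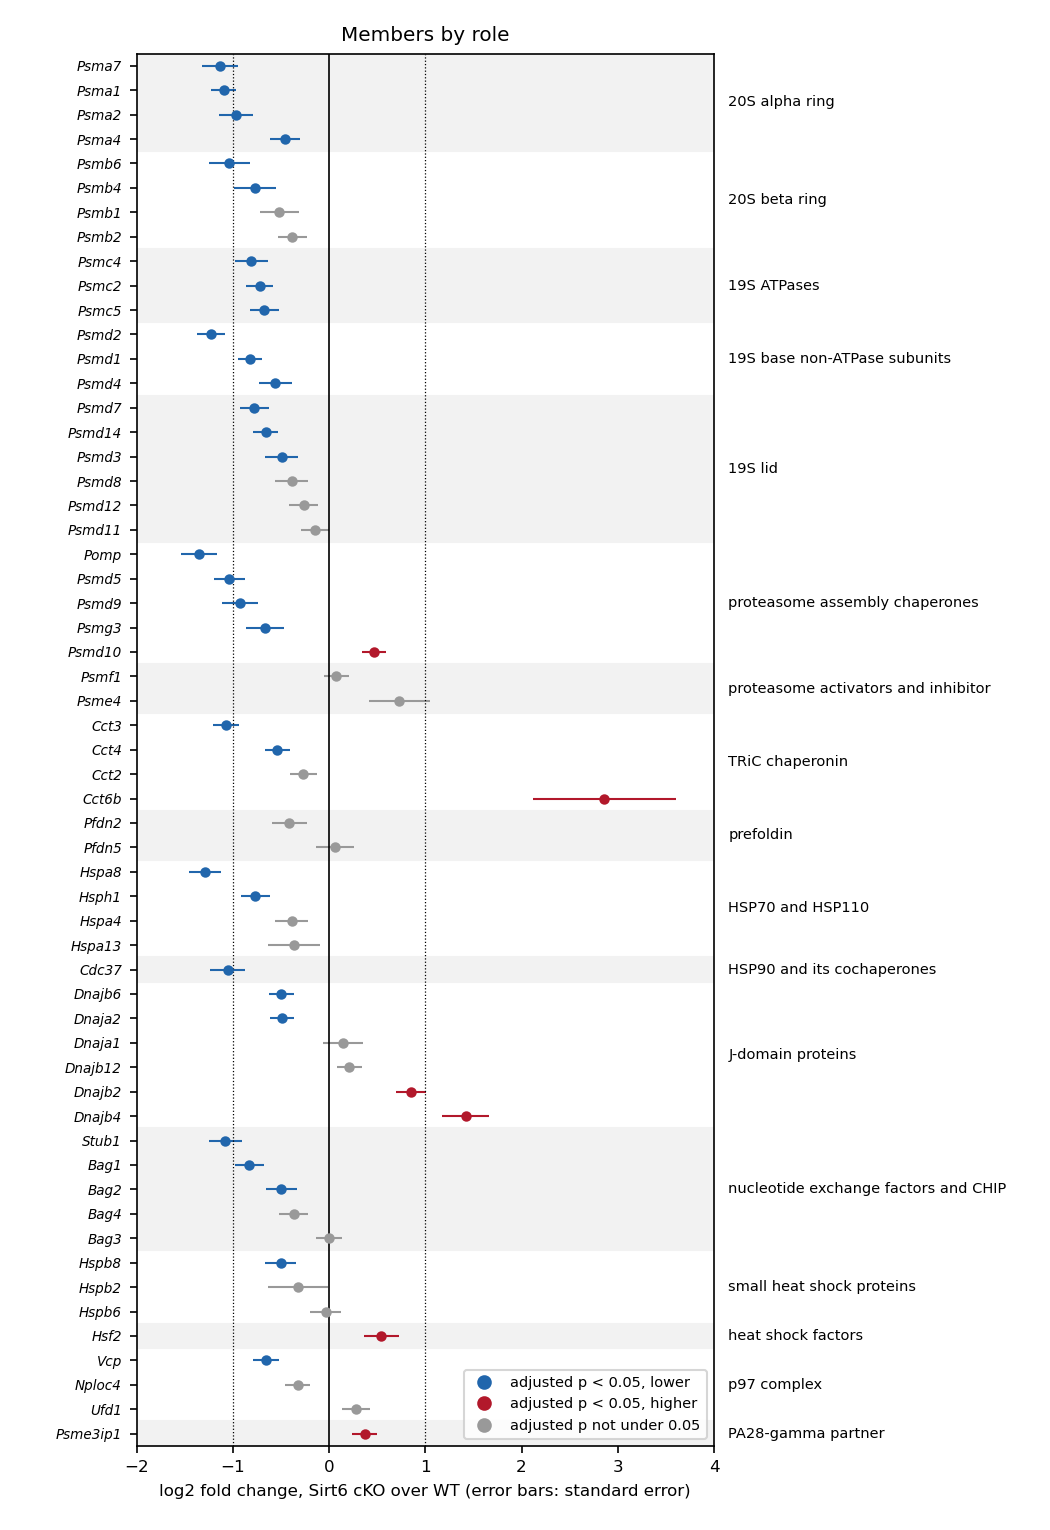
Log2 fold change (Sirt6 cKO over WT) of the 57 genes, grouped by role, with standard errors from the edgeR fit; blue and red mark an adjusted p under 0.05 and dotted lines a 2-fold change. All 20 subunits of the 20S core and the 19S particle lie left of 0, whereas Psmd10, Psme3ip1, Dnajb2, Dnajb4, Hsf2 and Cct6b are higher.

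WT replicate 1 stood apart from WT replicates 2 and 3 and touches most of these values. In 55 of the 57 genes it was the highest or the lowest of the 3 WT samples. Its ratio to the other WT samples fell with exon length over all genes tested (Spearman's rho of -0.25 across genes, which are not independent). WT replicates 2 and 3 showed almost no such relation (rho of 0.03). All genes tested include rows outside the 2 identifier ranges, where exon lengths and counts may not line up. The genes of the proteasome subunits have a short total exon length (median 2270 bases, 3407 for all genes tested). In WT replicate 1 they lay 0.44 (median) above the other WT samples on the log2 scale. The lowest quartile of all genes by exon length, with the same limit on its rows, lay 0.19 above in WT replicate 1. Without this sample 34 of the 57 genes were lower and 7 higher, while the shares of all genes tested rose to 27.8% and 27.5%, and the median log2 fold change of the 57 genes was -0.42. The number below a fold change of 0.5 fell from 10 to 4, namely Psma1, Psmd2, Pomp and Hspa8. The trend of counts with exon length was also removed in every sample, a step added after the data were seen. It was fitted on rows inside and outside the 2 ranges. With the trend removed 33 genes were lower and 6 higher, beside 24.2% and 23.3% of all genes tested. In that fit 7 genes were below a fold change of 0.5 and 3 were above 2.

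**Figure D2:**
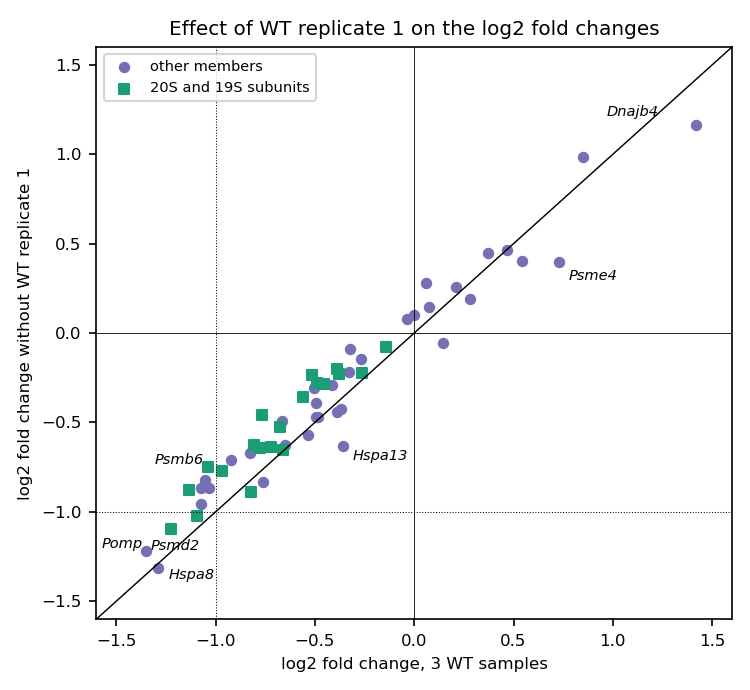
Log2 fold change of 56 of the 57 genes (Cct6b, at 2.86, lies outside the axes) with all WT samples, on the x axis, and without WT replicate 1, on the y axis; the diagonal marks equal values and dotted lines a fold change of 0.5. The 20S and 19S subunits (squares) mostly lie above the diagonal, nearer to 0 without WT replicate 1, but all remain below 0.

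The 20S core is built of alpha subunits, which form the outer rings and the gate, and beta subunits, which carry the proteolytic sites. Of its genes 4 alpha and 4 beta subunits were measured, and 6 of these 8 were lower in Sirt6 cKO chondrocytes. Psma7 (chromosome 2 from 180036373 to 180042433 in the table's coordinates, which match GRCm38) had 400.1, 253 and 254 CPM in WT and 138, 134 and 142 in Sirt6 cKO (log2 fold change -1.13, standard error 0.19, adjusted p = 0.00178). Psma1 (chromosome 7 from 114264606 to 114276118) had 246, 215 and 211 CPM in WT and 106, 111 and 97.5 in Sirt6 cKO (log2 fold change -1.09, standard error 0.13, adjusted p = 0.0003). In both alpha subunits every WT sample was above every Sirt6 cKO sample, and in Psma7 WT replicate 1 was far above the other WT samples. Psma2, the alpha subunit with the highest level per kilobase of exon, fell from 171, 117 and 122 to 74.9, 74.0 and 61.0 CPM (log2 fold change -0.97, adjusted p = 0.00276). Psma4 was at -0.45 on the log2 scale (adjusted p = 0.0401), and did not pass without WT replicate 3 or without any 1 of the Sirt6 cKO samples (adjusted p of 0.0547 to 0.12), or with upper-quartile normalization (adjusted p = 0.0811). Without WT replicate 1 it was at -0.29 and passed.

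Among the beta subunits, Psmb6 encodes the precursor of the caspase-like active site. It had 273, 161 and 169 CPM in WT and 106, 85.4 and 103 in Sirt6 cKO (chromosome 11 from 70525367 to 70527858, log2 fold change -1.04, standard error 0.21, adjusted p = 0.00469). The spread within WT came from replicate 1, at 1.65 times the mean of the others, and without it the log2 fold change was -0.75 (adjusted p = 0.000643). Psmb4, a structural beta subunit, was at -0.77 on the log2 scale (adjusted p = 0.0185), and at -0.75 and -0.71 without Sirt6 cKO replicate 3 or 2 (adjusted p = 0.0661 and 0.0715). Without WT replicate 1, at 1.71 times the others, it was at -0.46 and passed. Psmb1, the 20S subunit with the highest level per kilobase, had 421, 257 and 255 CPM in WT and 224, 233 and 195 in Sirt6 cKO. Its groups did not overlap, but its log2 fold change of -0.52 did not pass (adjusted p = 0.0667). It passed with the replicate number as a block (adjusted p = 0.031), in DESeq2 (adjusted p = 0.0494) and without WT replicate 2 (adjusted p = 0.0478). Without WT replicate 1, at 1.65 times the mean of the other WT samples, it was at -0.23 (adjusted p = 0.0728). Psmb2, which carries no active site, also did not pass, at -0.38 on the log2 scale (adjusted p = 0.0674) and at -0.23 without WT replicate 1.

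The 19S particle recognizes ubiquitin chains, removes them and threads the substrate into the core. Of its genes 12 were measured, and 9 were lower. All 3 ATPase genes of its base were lower, with log2 fold changes of -0.72 for Psmc2, -0.81 for Psmc4 and -0.68 for Psmc5 (adjusted p = 0.00308, 0.00553 and 0.00669). Psmc4 had 236, 162 and 177 CPM in WT and 112, 96.3 and 121 in Sirt6 cKO, and Psmc5 had 225, 164 and 176 in WT and 122, 111 and 120.4 in Sirt6 cKO. Neither gene overlapped between the genotypes.

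With all samples used, the largest decrease among the 20 measured subunits of the 20S core and the 19S particle was that of Psmd2 (chromosome 16 from 20651652 to 20663414). Psmd2 is a scaffold subunit of the base that docks ubiquitin-like shuttle proteins. It had 654, 497 and 521 CPM in WT and 257, 245 and 214 in Sirt6 cKO (log2 fold change -1.22, standard error 0.15, adjusted p = 0.000337). Psmd1, the other large scaffold subunit, had 265, 304 and 311 CPM in WT and 158, 165 and 175 in Sirt6 cKO (log2 fold change -0.82, adjusted p = 0.00107). Unlike most subunits, Psmd1 was lowest in WT replicate 1, so its decrease grew to -0.89 without that sample. Psmd4, a ubiquitin receptor, was at -0.56 on the log2 scale (adjusted p = 0.0259), and did not pass without any 1 of the Sirt6 cKO samples (adjusted p of 0.0541 to 0.0938). Without WT replicate 1 it was at -0.36 and passed.

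Of 6 subunits of the 19S lid, 3 were lower. Psmd7 had the highest level per kilobase of them and, with all samples used, the largest decrease. It fell from 444, 336 and 355 to 208, 207 and 249 CPM (log2 fold change -0.78, standard error 0.15, adjusted p = 0.0035). Psmd14, the deubiquitinase that strips the chain from the substrate, was at -0.66 on the log2 scale (adjusted p = 0.00419). Without WT replicate 1 it was at -0.652, and Psmd7 at -0.645. Psmd3 was at -0.49 (adjusted p = 0.0405), and at adjusted p of 0.0542 to 0.121 without WT replicate 3 or without any 1 of the Sirt6 cKO samples. It did not pass with upper-quartile normalization (adjusted p = 0.073), and was at -0.28 and passed without WT replicate 1. The other lid subunits did not pass, with log2 fold changes of -0.39 for Psmd8, -0.26 for Psmd12 and -0.14 for Psmd11 (adjusted p = 0.0928, 0.181 and 0.442). Psmd8 was at -0.20 and Psmd11 at -0.076 without WT replicate 1. Over the alternatives Psmd12 lay between -0.38 and -0.151 and Psmd11 between -0.25 and -0.069. Sirt6 cKO replicate 3 overlapped the WT samples in both Psmd11 and Psmd12.

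Scaled per kilobase of exon, the measured 20S genes together had 1506, 985 and 988 CPM per kilobase in WT and 727, 698 and 668 in Sirt6 cKO. The measured 19S genes had 1242, 953 and 995 in WT and 660, 618 and 713 in Sirt6 cKO. The summed level in Sirt6 cKO was thus 0.602 of WT for the core and 0.624 for the cap. Within WT, mean levels per kilobase ranged from 66.0 to 145 for the alpha, from 107 to 300.2 for the beta and from 25.5 to 237 for the 19S genes. Subunits that enter the particle in equal numbers therefore differed several-fold on this scale. The scale divides by the exon length of the whole gene, and whether the expressed transcripts are shorter was not tested.

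**Figure D3:**
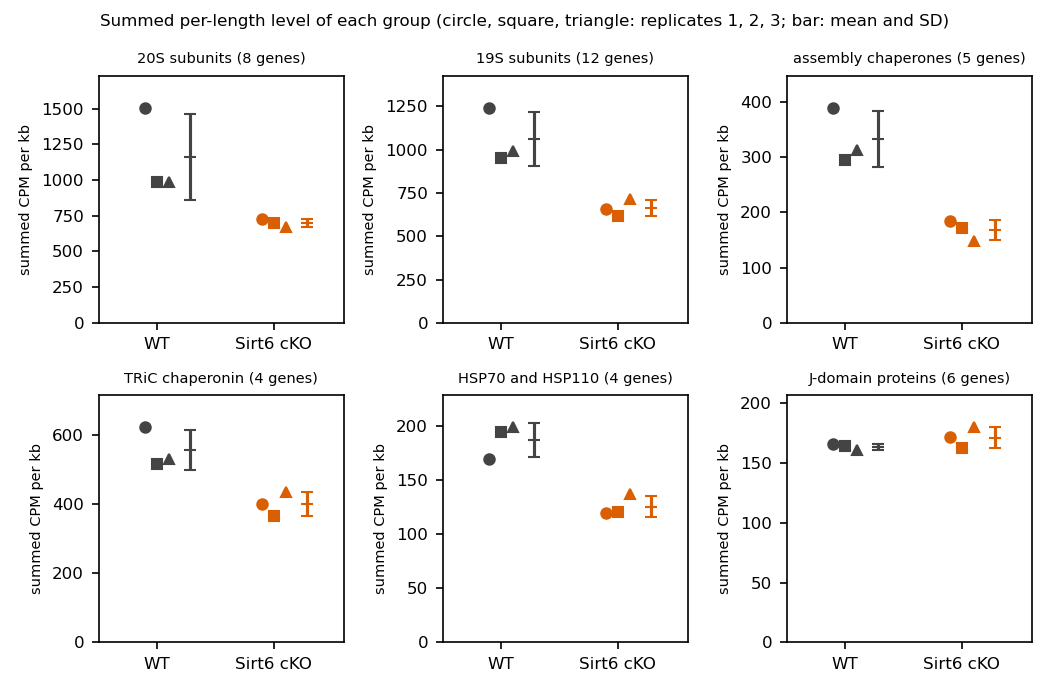
Summed CPM per kilobase of exon in each sample for 6 groups of genes, with WT in grey and Sirt6 cKO in orange; symbols mark replicate numbers, and the bar beside them gives mean and SD (n = 3). The 20S, 19S, assembly chaperone, TRiC and HSP70 groups are lower in all Sirt6 cKO samples than in any WT sample, and the J-domain proteins overlap.

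Proteasomes are put together by dedicated chaperones, and 4 of the 5 measured were lower. Pomp, the maturation protein that joins the assembling core and is degraded as its first substrate, showed the largest decrease of all 57 genes with all samples used. Pomp had 194, 145 and 157 CPM in WT and 73.6, 71.3 and 49.6 in Sirt6 cKO (chromosome 5 from 147860628 to 147875778, log2 fold change -1.35, standard error 0.19, adjusted p = 0.000711). The decrease of Hspa8 was larger than that of Pomp without WT replicate 1 (-1.32 against -1.22), without Sirt6 cKO replicate 2 (-1.45 against -1.43) and with the length trend removed (-1.29 against -1.18). Psmd5, which helps to assemble the ATPase ring, had 232, 164 and 172 CPM in WT and 93.3, 85.3 and 98.6 in Sirt6 cKO (log2 fold change -1.03, standard error 0.16, adjusted p = 0.00127). Psmd9 and Psmg3, which assist the base and the alpha ring, had log2 fold changes of -0.92 and -0.66 (adjusted p = 0.00389 and 0.0223), and Psmg3 was at adjusted p = 0.0589 and 0.0872 without Sirt6 cKO replicate 3 or 2.

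Psmd10 (gankyrin), an ATPase ring chaperone that also binds CDK4 and MDM2, was the exception. It had 41.8, 42.9 and 41.1 CPM in WT and 62.5, 55.1 and 56.4 in Sirt6 cKO (log2 fold change 0.47, standard error 0.12, adjusted p = 0.0142). The samples of each genotype lay close together and apart from the other genotype. The gene overlaps Atg4a on the X chromosome. Its adjusted p was 0.0543 without WT replicate 3 and 0.0854 without Sirt6 cKO replicate 1.

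The caps other than 19S are represented by Psme4, which encodes the activator PA200, and by the inhibitor Psmf1. Psme4 had 58.2, 161 and 145 CPM in WT and 199, 216 and 189 in Sirt6 cKO. All Sirt6 cKO samples were above all WT samples, but WT replicate 1 lay at 0.38 times the mean of the other WT samples, and the log2 fold change of 0.73 (standard error 0.32) did not pass (adjusted p = 0.0886). The log2 fold change was 0.40 without WT replicate 1 (adjusted p = 0.00927), 1.00 without WT replicate 2 (adjusted p = 0.0353) and 0.85 with the replicate number as a block (adjusted p = 0.00972). In DESeq2 it was 0.74 (adjusted p = 0.0372). Psmf1 had a mean of 59.6 CPM in WT and 62.8 in Sirt6 cKO (adjusted p = 0.656). Psme3ip1, whose product binds the activator PA28-gamma and which the rule admits by its name, was at 0.37 on the log2 scale (adjusted p = 0.0434). It was at 0.0569 with the replicate number as a block, and at 0.128 to 0.16 without WT replicate 2 or 3 or Sirt6 cKO replicate 1 or 2.

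TRiC is a ring of related subunits, of which Cct2, Cct3, Cct4 and the testis-enriched Cct6b were measured. Cct3 had 706, 544 and 580.0 CPM in WT and 278, 287 and 306 in Sirt6 cKO (chromosome 3 from 88297116 to 88321767, log2 fold change -1.07, standard error 0.14, adjusted p = 0.000436). Cct4 had 463, 501 and 490.4 CPM in WT and 333, 292 and 377 in Sirt6 cKO (log2 fold change -0.54, adjusted p = 0.0102, and 0.0527 without Sirt6 cKO replicate 2). Cct2, which had the highest level per kilobase of all 57 genes in WT, had 708, 551 and 569 CPM in WT and 511, 460.5 and 547 in Sirt6 cKO. Its groups were separated by a narrow gap, and the log2 fold change of -0.27 did not pass (adjusted p = 0.146) and was -0.15 without WT replicate 1.

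Cct6b was counted 4, 13 and 0 times in WT and 63, 38 and 32 times in Sirt6 cKO (log2 fold change 2.86, standard error 0.74, adjusted p = 0.0131). The fold change rests on very few reads, ranged from 2.26 to 4.25 over the alternatives, and reads shared with its paralog Cct6a cannot be assigned with certainty. Of prefoldin, the partner of TRiC, the rule includes Pfdn2 and Pfdn5. Neither passed, with log2 fold changes of -0.41 (adjusted p = 0.0916) and 0.06 (adjusted p = 0.821). Pfdn2 was at adjusted p = 0.0484 with the replicate number as a block and passed in no other alternative. Its log2 fold change lay between -0.493 and -0.262 over the alternatives. Vbp1, a prefoldin subunit outside the rule, was lower (log2 fold change -0.78, adjusted p = 0.00278).

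Among the HSP70 and HSP110 genes, Hspa8 encodes the constitutive cytosolic HSP70, which also uncoats clathrin vesicles. It had 82.9, 87.0 and 88.5 CPM in WT and 35.2, 42.6 and 27.9 in Sirt6 cKO (chromosome 9 from 40800984 to 40805200, log2 fold change -1.29, standard error 0.17, adjusted p = 0.000507). WT replicate 1 lay with the other WT samples here, and the log2 fold change without it was -1.32. The mouse genome holds many processed copies of Hspa8, so reads that match several copies may be missing from its count. Hsph1, an HSP110 that releases ADP from HSP70, had 378, 433 and 444 CPM in WT and 253, 278 and 207 in Sirt6 cKO (log2 fold change -0.76, adjusted p = 0.00321).

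Hspa4, another HSP110, had the highest level per kilobase of the group. It had 498, 552 and 568 CPM in WT and 369.9, 343 and 523 in Sirt6 cKO. Sirt6 cKO replicate 3 overlapped the WT samples, and the log2 fold change of -0.39 did not pass (adjusted p = 0.0924). It passed with the replicate number as a block (adjusted p = 0.0385), without WT replicate 1 (adjusted p = 0.0484) and without Sirt6 cKO replicate 3 (adjusted p = 0.0123), and with the length trend removed (adjusted p = 0.047). Hspa13 did not pass either (adjusted p = 0.3), and without WT replicate 1, which lay at 0.483 times the mean of the others, its log2 fold change was -0.63 (adjusted p = 0.00532).

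HSP90 itself was not analysed here. Its kinase-specific cochaperone Cdc37 had 495, 319 and 331 CPM in WT and 194, 184 and 174 in Sirt6 cKO (chromosome 9 from 21138541 to 21149906, log2 fold change -1.05, standard error 0.18, adjusted p = 0.002). Stub1, the ubiquitin ligase CHIP that passes chaperone clients to the proteasome, had 155, 105 and 106 CPM in WT and 57.3, 57.6 and 58.3 in Sirt6 cKO (log2 fold change -1.08, standard error 0.17, adjusted p = 0.00145). In both genes the lowest WT sample was above the highest Sirt6 cKO sample. The gene of Stub1 overlaps Jmjd8. The study's methods describe strand-specific libraries, whereas the labels name other library kits and another sequencer. Whether the counting used the strand is not given in the sources used here. The same limit holds for other genes that overlap a neighbour. Among them are Psma4 (AY074887), Psmd1 (Htr2b), Psme4 (Erlec1) and Ufd1 (Cdc45), and, outside the rule, Ubxn6 (Chaf1a), Usp14 (Thoc1) and Rps27a (Clhc1).

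**Figure D4:**
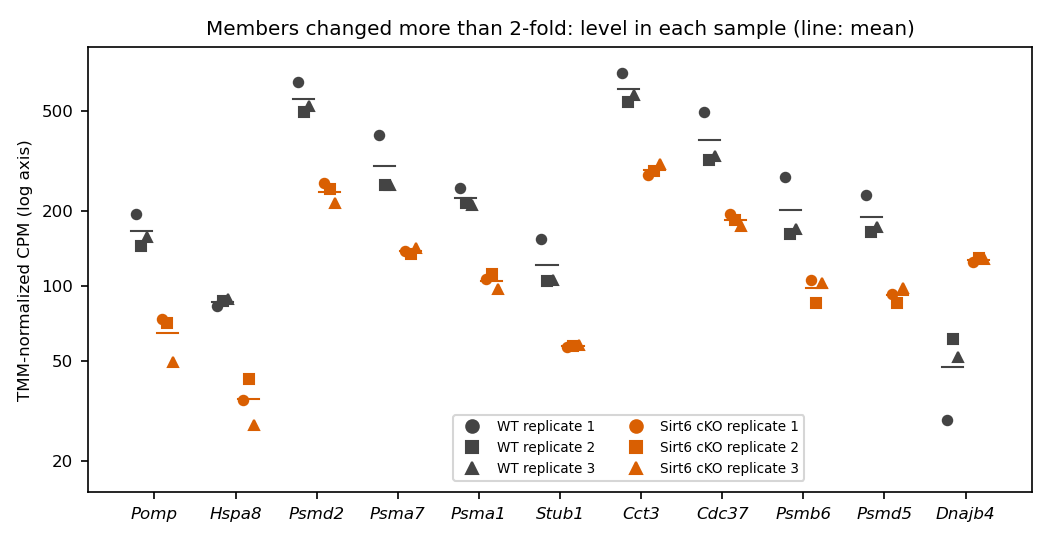
TMM-normalized CPM (log axis) of the 11 genes changed more than 2-fold with more than a few reads, in 3 WT samples (grey) and 3 Sirt6 cKO samples (orange); symbols mark replicate numbers and lines the means. Groups do not overlap in any of the 11, WT replicate 1 is the highest WT sample in 9 of them, and only Dnajb4 is higher in Sirt6 cKO.

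The BAG proteins exchange the nucleotide on HSP70. Bag1, which links HSP70 to the proteasome and has the highest level per kilobase of its group, had 184, 136 and 136 CPM in WT and 86.9, 86.3 and 83.4 in Sirt6 cKO (log2 fold change -0.83, standard error 0.15, adjusted p = 0.00267). Bag2 was at -0.50 (adjusted p = 0.0338), but at adjusted p of 0.0513 to 0.128 without WT replicate 3 or without any 1 of the Sirt6 cKO samples, and of 0.0553 with upper-quartile normalization. Bag4 did not pass (log2 fold change -0.37, adjusted p = 0.0674), but did without WT replicate 1 (adjusted p = 0.0222) and with the length trend removed (adjusted p = 0.0418). Bag3, a heat-inducible scaffold of selective autophagy, had a mean of 128 CPM in both genotypes (adjusted p = 0.998).

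J-domain proteins choose the clients of HSP70, and the 6 measured did not move together. Dnajb4 rose from 29.2, 61.6 and 52.0 to 125, 129 and 128 CPM (chromosome 3 from 152178511 to 152210279, log2 fold change 1.42, standard error 0.24, adjusted p = 0.00196). The Sirt6 cKO samples were nearly equal, and without WT replicate 1, the lowest, the log2 fold change was 1.17. Dnajb2 rose from 29.2, 22.5 and 22.7 to 48.1, 43.8 and 42.4 CPM (log2 fold change 0.85, standard error 0.15, adjusted p = 0.00238). Dnaja2, a general partner of HSP70 with the highest level per kilobase of the group, and Dnajb6, which holds back protein aggregates, were lower, both at -0.49 on the log2 scale (adjusted p = 0.0129 and 0.012). Without Sirt6 cKO replicate 1 or 2 the adjusted p was 0.0667 and 0.0646 for Dnaja2 and 0.0503 and 0.0509 for Dnajb6. Dnaja1 and Dnajb12 did not pass, with log2 fold changes of 0.14 and 0.21 (adjusted p = 0.602 and 0.211), and Dnaja1 was at -0.055 without WT replicate 1.

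Small heat shock proteins hold unfolded clients without ATP. Hspb8, the partner of Bag3, had 252, 173 and 177 CPM in WT and 143, 138 and 144 in Sirt6 cKO (log2 fold change -0.50, adjusted p = 0.0335). It was at 0.0857 to 0.104 without any 1 of the Sirt6 cKO samples and at 0.0609 with upper-quartile normalization. Its log2 fold change without WT replicate 1 was -0.31, and it passed. Hspb6 and Hspb2, at means of 20.6 and 2.22 CPM in WT, did not pass (adjusted p = 0.868 and 0.42). Hsf2, a heat shock factor, rose from 22.3, 30.7 and 31.5 to 38.5, 36.8 and 48.0 CPM (log2 fold change 0.54, standard error 0.18, adjusted p = 0.0347). Its adjusted p was 0.0546 to 0.102 without any 1 of the Sirt6 cKO samples. Hsf4, which the rule does not include, was lower (log2 fold change -0.69, adjusted p = 0.0266).

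The p97 ATPase pulls ubiquitinated proteins out of complexes and membranes with the help of its adaptor pair. Vcp, which encodes p97, had 137, 128 and 133 CPM in WT and 88.0, 92.3 and 72.9 in Sirt6 cKO (chromosome 4 from 42979963 to 43000507, log2 fold change -0.65, standard error 0.14, adjusted p = 0.00476). Here the WT samples lay close together, and the value without WT replicate 1 was -0.63. The adaptors Nploc4 and Ufd1 did not pass, with log2 fold changes of -0.33 and 0.28 (adjusted p = 0.0727 and 0.138).

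Of 74 further symbols of the pathway, 44 genes were analysed, of which 12 were lower (27.3%, against 24.3% of all genes tested) and 4 higher (9.09%, against 22.5%). Without WT replicate 1, 16 of the 44 were lower and 8 higher, beside 27.8% and 27.5% of all genes tested. Among 14 genes of ubiquitin supply, shuttling and proteasome control, 7 were lower (50%) and 0 higher. These 7 were the deubiquitinases Uchl5 and Usp14 of the 19S particle, its ubiquitin receptor Adrm1, the ligase Ube3c, the ubiquitin genes Ubb and Rps27a and the activating enzyme Uba1. Uchl5 had the largest decrease, from a mean of 32.2 to 15.1 CPM (log2 fold change -1.09, standard error 0.20, adjusted p = 0.00239). Nfe2l2, a stress-responsive activator of proteasome genes, was at -0.20 on the log2 scale (adjusted p = 0.32). Among 17 other chaperones and partners 3 were lower (17.6%), the prefoldin subunit Vbp1, the myosin chaperone Unc45a and Hsf4, and 0 were higher. Without WT replicate 1 this list had 6 lower and 1 higher.

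Of 13 p97 partners measured, Faf1, Faf2, Ubxn4 and Ankzf1 were higher (30.8%), Nsfl1c and Ubxn6 were lower (15.4%) and 7 did not pass, beside 22.5% higher and 24.3% lower of all genes tested. Ankzf1, which releases stalled chains from the ribosome, rose from a mean of 14.6 to 32.7 CPM (log2 fold change 1.16, standard error 0.16, adjusted p = 0.000701), and overlaps Glb1l. Nsfl1c (p47), the membrane-fusion cofactor of p97, fell from 118 to 67.0 CPM (log2 fold change -0.82, adjusted p = 0.00329). Without WT replicate 1 there were 7 higher and 2 lower p97 partners, beside 27.5% and 27.8% of all genes tested.

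Markers of proliferation and of cell type also differed between the genotypes. All 10 analysed genes of a list of 17 proliferation markers were lower, with a median log2 fold change of -2.74. Their summed level was 2557 to 3284 CPM in WT and 319 to 368 in Sirt6 cKO. Of 15 chondrocyte markers 5 were analysed, without Col2a1 and Acan, and in WT their means were 192 CPM for Sox9 but 5.90 for Col9a3, 0.674 for Comp and 0.172 for Ucma. All but Col9a3 were higher in Sirt6 cKO. Of 9 synovial fibroblast markers 7 were analysed and 4 were higher. Their summed level, most of it from Col1a1, was 4698 to 4765 CPM in WT and 12350 to 14020 in Sirt6 cKO. Runx2, for osteoblasts, and Cd68, for macrophages, at a mean of 1.64 CPM in WT, did not pass (adjusted p = 0.202 and 0.473), and no listed endothelial or muscle gene was analysed. The part of these differences in the lower proteasome and chaperone levels was not tested, and in such bulk samples fewer cells of a type and less RNA per cell cannot be told apart.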

How the data were processed

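Raw read counts per Ensembl gene, 6 columns with exon positions and exon length, were deposited by the authors without normalization. Per the labels, cutadapt, HISAT2 2.0.5 and StringTie were used and hg19, a human build, is named, although the table holds mouse genes. The counter and strand setting are not given in the sources used here. Rows were named by span overlap of at least 0.5 with RefSeq genes of GRCm38.p6. In the 2 identifier ranges used, exon length and mean count correlated within a row (Spearman's rho 0.250 and 0.295) more than at any shift of 1 to 8 rows.

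Counts were tested with edgeR 4.0.16 (R 4.3.3): TMM, filterByExpr, glmQLFit and glmQLFTest on genotype, Benjamini-Hochberg over 11246 genes. CPM are TMM-normalized, and per-kilobase levels divide them by exon length. The standard error is the log2 fold change over the root of F. Deviations from the genotype means correlated at 0.363, 0.116 and 0.182 for samples with the same number in their titles. For samples with different numbers the correlations were -0.333 to 0.113, so the value of replicate 2 (0.116) was hardly above them. Centring on the mean of 3 samples ties these values to each other, so they cannot settle whether samples were paired. A fit with the replicate number as a block was added. Alternatives were DESeq2 1.42.0, limma-voom (limma 3.58.1), 3 other scalings, 2 other filters, an adjusted p under 0.01, leaving out each sample, and, added after the data were seen, removal of the trend with exon length. Naming by Ensembl identifier was not run, because the reference pairs none.

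The genes and lists were chosen with earlier results of these data known. The rule for genes described with values took those changed over 2-fold, per role the largest increase, the largest decrease and the highest level per kilobase, and Hsf2 and Vcp. Psmd1, Hsph1, Cct4 and Dnajb2 were given per-sample values outside this rule, after their values were seen, and the others are named to account for every gene. The gene lists for proliferation, chondrocytes, synovial fibroblasts, osteoblasts, macrophages, endothelium and muscle were written by hand. No sequence is shown, since the reference used here holds none.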

Additional observations from a re-analysis of the deposited data

How the results depend on the processing

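The number of lower genes stayed within 1.5 times of 31 in every alternative, and 21 of the 31 lower genes were lower in each of 15 alternative fits, 11 of them 20S or 19S subunits. Of the 6 higher genes, Dnajb2 and Dnajb4 were higher in each of the 15, and Cct6b in the 14 that tested it. No gene called in either direction was called in the other direction by any alternative. With each sample left out in turn, 21 to 34 genes were lower and 3 to 7 higher, beside 16.9% to 27.8% and 15.8% to 27.5% of all genes tested. In these fits 4 to 12 genes were below a fold change of 0.5, and 2 were above 2 in each. The lowest numbers were 21 without Sirt6 cKO replicate 2, 3 without Sirt6 cKO replicate 1 and 4 without WT replicate 1. At an adjusted p under 0.01, 2 genes were higher and 1 was above 2-fold. Requiring 10 counts or more per sample, which drops Cct6b, left 1 above 2-fold. For the alternatives, the shares of all genes changed over 2-fold or at an adjusted p under 0.01 are not given here. Upper-quartile normalization moved the median of all genes to 0.08 and left 5 genes below a fold change of 0.5. With it 27 genes were lower, without Psma4, Psmd3, Bag2 and Hspb8, beside 20.7% of all genes tested. Total counts alone and the removed length trend each left 7 genes below a fold change of 0.5. The fit with a replicate block gave 34 lower and 6 higher genes, beside 25.5% and 25.6% of all genes tested. Its calls changed for Psmb1, Hspa4, Pfdn2, Psme4 and Psme3ip1 and no other of the 57 genes. The log2 fold change of Pfdn5, not called in any fit, changed sign to -0.024, -0.029 and -0.028 without WT replicate 2, WT replicate 3 and Sirt6 cKO replicate 1, and lay between -0.029 and 0.278 (without WT replicate 1) with each sample left out. Dnaja1, Bag3, Hspb6 and Psmf1, also not called in any fit, changed sign in at least 1 alternative, with ranges of -0.055 to 0.32, -0.063 to 0.1, -0.107 to 0.08 and -0.017 to 0.152. The cause of these changes was not tested. Naming by Ensembl identifier was not run.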
